A study of Saccharomyces cerevisiae with 176 samples.

Results

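A26 is a strain of budding yeast (Saccharomyces cerevisiae) with complex aneuploidy, which means that its cells carry some chromosomes in more copies than others. Its 5 libraries, 3 from the experiment labelled exp6 and 2 from exp5, were taken by their titles from the 176 libraries of the series. They were set against 21 libraries of 7 other aneuploid strains in exp6 (A28, A29, A30, A32, A33, A34 and A38, with 3 libraries each) and, as a repeat, against 22 libraries of 11 other strains in exp5 (the same 7 and A1, A24, A35 and A36, with 2 libraries each). Every other strain had equal weight. All strains had the S288C background and were sampled as exponentially growing cultures in YEPD, a rich medium, with 2% glucose at 25 °C, 4 h after overnight cultures were brought to an optical density (OD600) of about 0.1. The libraries were made from poly(A) RNA with the KAPA kit in both experiments. Neither experiment holds a euploid library, so each value below places A26 among other aneuploid strains and not against a normal karyotype. The labels give neither the karyotype, the ploidy nor the mating type of A26, and they do not say whether the libraries of a strain came from separate cultures. The p-values therefore measure only the spread between libraries of a strain, which may be technical, and not the spread between strains.

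In aneuploid yeast most genes are transcribed roughly in proportion to their copies, so a chromosome with more or fewer copies shows as a shift of most of its genes in one direction. Yeast cells also differ by mating type. Alpha cells make alpha-factor and carry the receptor for a-factor, a cells do the reverse, both keep a set of haploid-specific genes for pheromone signalling, and in a/alpha cells the a1 and alpha2 proteins together shut that set off. Nutrient genes such as those for phosphate, glucose and iron uptake are each run by their own transcription factors, which respond to the supply in the medium.

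Levels were deposited as log2(TPM + 1), where TPM is transcripts scaled to a fixed library total, so 1 unit is a factor of 2 for all but the lowest genes. The depth of the libraries is unknown, because the values are not counts. Libraries of the same strain correlated with each other at 0.959 to 0.995 in exp6 and at 0.990 to 0.996 in exp5, and no pair was identical. The middle gene of a library lay at 4.87, 4.83 and 5.24 in the 3 A26 libraries of exp6, against 4.96 to 5.42 in the other libraries. Ribosomal protein genes took 43.1%, 41.6% and 38% of all TPM in these 3 libraries and 30.0% to 41.5% in the others. The first and second A26 libraries thus had the lower middle gene and the larger ribosomal share, while the third library lay inside the range of the other strains on both measures. In exp5 the A26 libraries lay inside the range of the other strains, with middle genes at 4.99 and 5.02 against 4.86 to 5.11 and a ribosomal share of 43.0% to 43.2% against 39.3% to 47.5%.

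In exp6, 3231 of 5444 genes tested differed between A26 and the mean of the 7 other strains (59.3%, limma, adjusted p under 0.05). Of these, 663 were higher (12.2%) and 2568 lower (47.2%). The median log2 difference over all genes was −0.24. With each library centred on the median of its tested genes, 3015 genes were called (55.4%), of which 1494 were higher (27.4%) and 1521 lower (27.9%), so the split between directions depends on the scaling. Gene changes in exp6 are therefore given below also relative to that median. A value with ± is a fitted log2 difference from the mean of the other strains, or from the named strain, with its standard error (SE), from 3 A26 libraries in exp6 and 2 in exp5. In exp5, where the median was −0.03, 3205 of 5375 genes were called (59.6%), 1534 of them higher (28.5%) and 1671 lower (31.1%). After centring 3376 were called (62.8%), 1491 higher (27.7%) and 1885 lower (35.1%). As deposited, 509 genes were called higher in both experiments (9.57% of the 5319 tested in both) and 1212 lower (22.8%). With libraries centred, 911 genes were higher in both experiments (17.1%) and 892 were lower in both (16.8%). Set against its own 7 others in exp6, each strain gave between 2015 (A28) and 3241 (A33) calls as deposited. A26 ranked 2 from the most on that scale. With libraries centred the calls ran from 2324 (A28) to 3470 (A33), and A26 with 3015 ranked 6. As deposited, its rank was 6, 7 and 1 without the 1st, 2nd and 3rd A26 library, so its place rests on the scaling and on single libraries. With the strains themselves as replicates, 0 genes passed in either experiment (limma), with 423 at an unadjusted p under 0.05 in exp6 and 123 in exp5. An exact one-sided permutation over strains cannot give a p below 0.125 in exp6 or 0.0833 in exp5.

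A stricter view asks which genes set A26 apart from each of the 7 strains in turn. In exp6, 37 genes were higher than in every one of them (0.68% of 5444) and 386 lower (7.09%). With libraries centred the counts were 199 higher (3.66%) and 141 lower (2.59%). The number rested on the libraries used, since 264, 202 and 868 genes passed without the 1st, 2nd and 3rd A26 library, where 423 passed with all 3. Against single strains, the share of genes called was 46.0% for A28, 48.6% for A29, 50.6% for A30, 53.8% for A32, 52.5% for A33, 64.2% for A34 and 62.1% for A38. As deposited, the A26 libraries of exp6 lay above all other libraries for 71 genes (1.3%) and below all for 262 (4.81%), and those of exp5 for 147 (2.73%) and 113 (2.1%). With libraries centred the shares were 4.45% and 3.32% in exp6 and 2.6% and 2.57% in exp5.

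Of the 16 chromosomes of A26, 5 lay apart from the mean of the other strains by at least 0.25 in all 5 libraries. Genes of chromosome XIV were higher, by a median of 0.44, 0.46 and 0.48 in the exp6 libraries and 0.42 and 0.47 in the exp5 libraries, relative to the median of all genes. Chromosome X was higher by 0.27, 0.28 and 0.32 in exp6 and 0.33 and 0.35 in exp5, and chromosome XIII by 0.29, 0.27 and 0.30 and then 0.28 and 0.30. On the other side, chromosome IX was lower, at −0.43, −0.45 and −0.45 in exp6 and −0.35 and −0.37 in exp5. Chromosome VIII was lower too, at −0.31, −0.29 and −0.38 in exp6 and −0.28 and −0.26 in exp5. The shifts covered most genes of a chromosome: 6.78% of chromosome XIV genes lay below the median gene in exp6 and 2.81% in exp5, while 90.5% and 88.2% of chromosome IX genes did. With libraries centred, 273 of 369 chromosome XIV genes were called higher and 7 lower in exp6, and 130 of 190 chromosome IX genes were called lower and 2 higher. These counts are high beside the 27.4% and 27.9% of all genes called in those directions.

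Both arms of each of these chromosomes were shifted in the same direction. The median was 0.47 on the left and 0.46 on the right arm of chromosome XIV in exp6 (300 and 69 genes), and 0.44 and 0.48 in exp5. For chromosome IX it was −0.47 and −0.38 in exp6 (155 and 35 genes) and −0.37 and −0.40 in exp5. Chromosome VIII gave −0.36 on its left arm and −0.33 on its right in exp6. Chromosomes II (0.24 in exp6 and 0.30 in exp5), XI (0.23 and 0.25) and VII (−0.24 and −0.31) lay just short of the limit in at least one library. Chromosome VI passed it in the exp6 libraries of A26 (−0.27, −0.29 and −0.28) and not in those of exp5 (−0.16 and −0.14).

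Because the other strains are aneuploid as well, each of these shifts depends on which strains stand on the other side. Measured from the median of all strains of exp6, chromosome XIV stood at 0.34 in A26, above A30 at 0.21 and A33 at 0.20, while the other 5 strains lay between −0.17 and −0.10. In exp5 A26 stood at 0.42 and A24 higher, at 0.46. Chromosome IX stood at −0.51 in A26 and −0.55 in A33 in exp6, and no other strain of exp6 fell below −0.06. In exp5 it stood at −0.44 in A26, −0.52 in A36 and −0.55 in A33. Chromosome VIII stood at −0.41 in A26, −0.45 in A29 and −0.51 in A33. On chromosomes X and XIII in exp6, the low strains lay further from the median of all strains than A26 did. A30, A33 and A38 stood at −0.50, −0.52 and −0.31 on chromosome X against 0.14 in A26. A32, A34 and A38 stood at −0.29, −0.26 and −0.28 on chromosome XIII against 0.18 in A26. Set against the median in place of the mean of the other strains, the chromosome X shift of exp6 was 0.17 in place of 0.30. In exp5 it was 0.32 in place of 0.34. The chromosome XIII shift was 0.25 in place of 0.29 in exp6 and 0.22 in place of 0.29 in exp5.

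**Figure D1:**
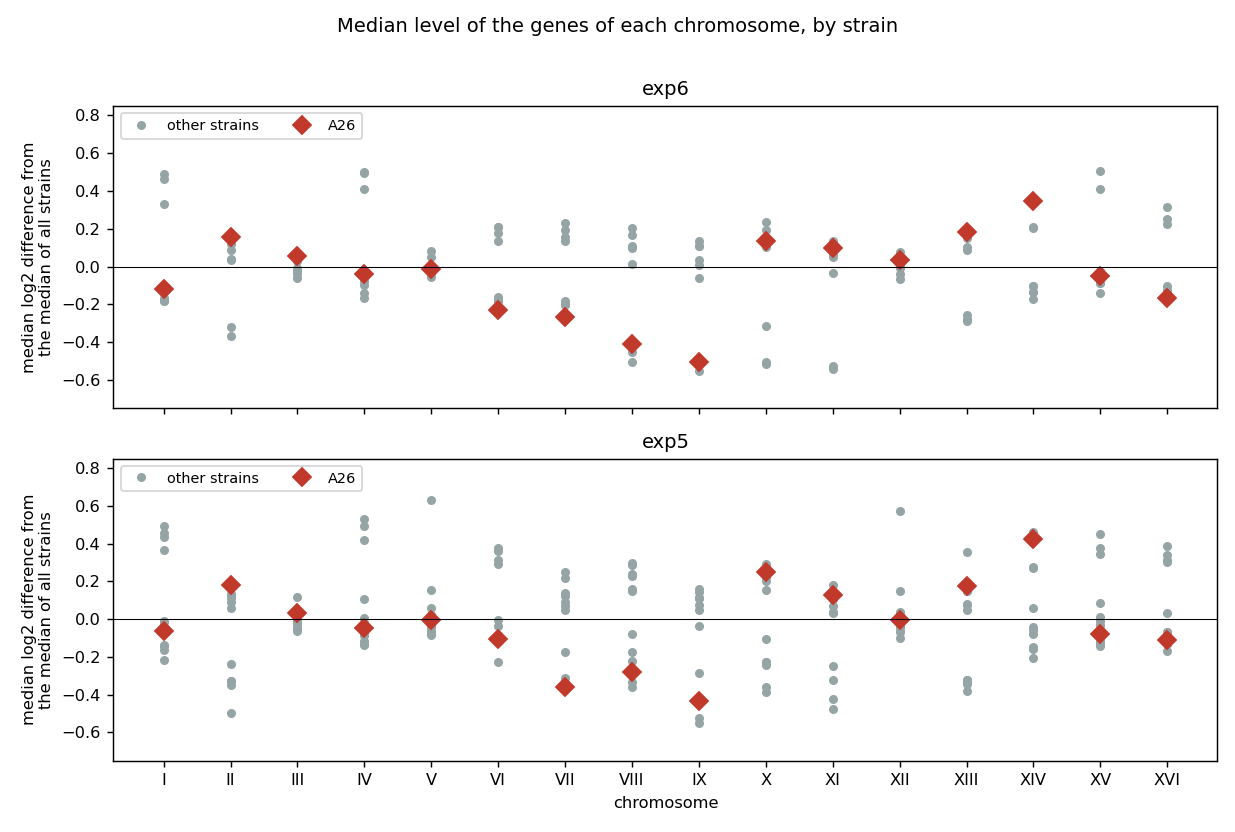
Median log2 difference of the genes of each chromosome (x axis) from the median of all strains (y axis), in exp6 (upper panel) and exp5 (lower panel), with 1 point per strain and A26 as a red diamond. A26 is the highest strain of exp6 on chromosome XIV (0.34), and on chromosome IX A33 lies below it in exp6 and both A33 and A36 in exp5.

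Abundant single genes on these chromosomes, chosen after their values were seen, varied around the chromosome medians. FPR1 on chromosome XIV, a peptidyl-prolyl isomerase that binds rapamycin, stood at 11.01, 11.08 and 10.81 in exp6 against 9.87 to 10.70 in the others, and was higher by 0.78 ± 0.08 (1.02 relative to all genes). In exp5 its level was 10.80 and 10.73 against 10.01 to 10.92, with a difference of 0.42 ± 0.05. Its values did not overlap those of the other strains in exp6 and did in exp5. SOD1 on chromosome X, the cytosolic copper-zinc superoxide dismutase, was higher by 0.58 ± 0.09 in exp6 (0.83 relative) and 0.66 ± 0.04 in exp5. GPP1 on chromosome IX, a glycerol-phosphate phosphatase, was lower by −0.73 ± 0.06 (−0.49 relative) and −0.44 ± 0.03. The metallothionein gene pair CUP1-1 and CUP1-2 on chromosome VIII, whose copies have the same values in the table and cannot be told apart, stood at 10.24, 10.37 and 10.65 against 10.67 to 14.62 in exp6. Smaller changes were those of TSA1, a peroxiredoxin on chromosome XIII (0.27 ± 0.07 and 0.45 ± 0.03), GIS2, an RNA-binding protein on chromosome XIV (0.46 ± 0.08 and 0.29 ± 0.03), and MMF1 on chromosome IX (−0.95 ± 0.14 and −0.43 ± 0.06). ASC1, a ribosome-bound protein on chromosome XIII, was higher in exp6 (0.26 ± 0.10, a call lost without the first or the second A26 library), and in exp5 its difference was 0.03 ± 0.04 (adjusted p = 0.58). The exp5 values of FPR1, GIS2 and ASC1 were at or below 0 once values were centred per chromosome. HSP150, a cell wall protein of chromosome X, went the other way from its chromosome in exp6 (−0.55 ± 0.13, and −0.30 relative, adjusted p = 0.057 with libraries centred) and was higher in exp5 (0.77 ± 0.08).

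The 12 genes with the largest increases in both experiments were mating genes, apart from SRD1, a gene linked to rRNA processing (1.62 ± 0.23 in exp6 and 2.06 ± 0.13 in exp5). Of the 8 alpha-cell genes tested in exp6, 8 were higher in A26, with a median of 3.89 relative to all genes, and 6 of 6 tested in exp5 were higher, with a median of 5.81. MATALPHA1 and HMLALPHA1 are listed with equal values, as are MATALPHA2 and HMLALPHA2, so these are 6 separate measurements in exp6 and 5 in exp5, and the medians count each copy. The haploid-specific and pheromone list gave 14 higher and 2 lower of 19 in exp6 (16 and 1 with libraries centred, median 1.58), and 14 higher and 1 lower of 15 in exp5 (median 1.57). These compare with 12.2% of all genes called higher in exp6 and 28.5% in exp5. Filters on low levels kept 19 of 22 written members of the haploid list in exp6 and 15 in exp5. They kept 8 of 8 alpha-cell genes in exp6 and 6 in exp5. A member of either list passes only through the strains where it is high, and A26 is among these. The counts therefore describe those that passed and are no test of the lists.

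The control regions of 6 of the genes described next are shown, because each holds a match to the letters of a short regulator site. The regulators are the alpha1 activator, the pheromone-activated Ste12 factor, the phosphate factor Pho4 and the glucose-regulated repressor Rgt1. A marked match need not be the stretch that the regulator uses at that gene. Each region is 300 bases read 5′ to 3′ on the strand of the gene, from the RefSeq genome of the sacCer3 build. It leaves out the 100 bases next to the start codon. Capitals mark the motif searched on both strands, which was CAATGNCAG (alpha1) for STE3 (chrXI:114728-115027, minus strand) and SAG1 (chrX:444962-445261, minus), TGAAACA (Ste12) for STE18 (chrX:585668-585967, plus) and FUS3 (chrII:192051-192350, plus), CACGTT (Pho4) for PHO84 (chrXIII:25901-26200, minus), and CGGANNA (Rgt1) for HXT1 (chrVIII:292726-293025, minus).
STE3: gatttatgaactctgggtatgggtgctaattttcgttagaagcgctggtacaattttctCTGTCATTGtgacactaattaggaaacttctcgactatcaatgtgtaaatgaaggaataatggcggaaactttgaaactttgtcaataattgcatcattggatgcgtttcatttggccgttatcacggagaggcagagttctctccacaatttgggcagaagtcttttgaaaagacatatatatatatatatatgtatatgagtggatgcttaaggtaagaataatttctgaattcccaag
SAG1: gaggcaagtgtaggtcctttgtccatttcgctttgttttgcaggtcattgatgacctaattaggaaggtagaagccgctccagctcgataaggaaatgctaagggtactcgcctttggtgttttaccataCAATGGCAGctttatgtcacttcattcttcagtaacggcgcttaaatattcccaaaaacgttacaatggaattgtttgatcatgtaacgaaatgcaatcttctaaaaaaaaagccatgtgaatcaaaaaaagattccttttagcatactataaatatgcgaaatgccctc
STE18: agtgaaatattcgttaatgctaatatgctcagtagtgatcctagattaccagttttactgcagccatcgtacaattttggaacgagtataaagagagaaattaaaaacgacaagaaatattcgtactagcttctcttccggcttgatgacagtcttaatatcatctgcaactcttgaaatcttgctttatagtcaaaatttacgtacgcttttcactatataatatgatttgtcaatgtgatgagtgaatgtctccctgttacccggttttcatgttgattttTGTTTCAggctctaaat
FUS3: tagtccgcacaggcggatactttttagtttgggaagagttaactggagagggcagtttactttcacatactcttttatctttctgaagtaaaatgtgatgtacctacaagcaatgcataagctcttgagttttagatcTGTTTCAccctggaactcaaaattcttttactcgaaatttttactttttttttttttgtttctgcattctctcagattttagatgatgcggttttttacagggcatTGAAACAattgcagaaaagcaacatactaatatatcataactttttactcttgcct
PHO84: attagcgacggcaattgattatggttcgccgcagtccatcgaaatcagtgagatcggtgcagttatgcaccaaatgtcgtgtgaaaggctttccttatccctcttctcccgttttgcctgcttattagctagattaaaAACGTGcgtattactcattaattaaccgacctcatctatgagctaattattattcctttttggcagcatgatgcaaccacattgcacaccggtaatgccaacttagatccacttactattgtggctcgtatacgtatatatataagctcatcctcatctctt
HXT1: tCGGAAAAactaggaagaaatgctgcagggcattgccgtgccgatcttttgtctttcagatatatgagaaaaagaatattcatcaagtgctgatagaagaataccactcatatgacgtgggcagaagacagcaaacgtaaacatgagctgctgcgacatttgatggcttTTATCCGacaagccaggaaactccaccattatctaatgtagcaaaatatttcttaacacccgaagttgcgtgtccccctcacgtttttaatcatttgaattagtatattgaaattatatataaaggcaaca

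The match to the alpha1 core lay 341 bases before the start codon of STE3 and 270 before that of SAG1. The core was found in 47 of 5352 windows of the same kind, taken from the genes tested in exp6 (0.878%). Among the 8 alpha-cell genes it was found in 3, MF(ALPHA)2, STE3 and SAG1. TGAAACA was found in 393 windows (7.34%) and in 13 of 19 windows of the haploid and pheromone list, at 117 bases before the start codon of STE18 and at 262 and 156 before that of FUS3. CACGTT was found in 534 windows (9.98%), and the other form of the Pho4 site, CACGTG, in 248 (4.63%). CGGANNA, which allows any base at 2 of its positions, was found in 1601 windows (29.9%). A match is a description of these letters and not a site shown to be used in these cells.

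MF(ALPHA)1 (YPL187W), which encodes the main precursor of alpha-factor and lies on chromosome XVI from 193648 to 194145 on the plus strand, stood at 12.02, 11.99 and 12.29 in the A26 libraries of exp6 and at 11.92 and 12.00 in those of exp5. The other strains ran from 1.16 to 12.51 in exp6, with a median of 3.05, and from 0.00 to 12.66 in exp5. A26 was at the high level with A30 and A38, and no library of the remaining strains exceeded 4.20 in exp6 or 2.99 in exp5. The fitted difference from the mean of the other strains was 6.70 ± 0.21 in exp6 (adjusted p = 7e-17) and 8.21 ± 0.15 in exp5 (3.1e-17). Since the other strains fall at separate levels, this difference also depends on how many of them share the high one. Against single strains of exp6, A26 differed by 10.43 ± 0.28 from A28 (adjusted p = 3.4e-18), by −0.35 ± 0.28 from A30 (0.31) and by 0.14 ± 0.28 from A38 (0.69).

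STE3 (YKL178C) encodes the receptor through which alpha cells sense a-factor. It stood at 8.11, 7.95 and 8.37 in A26 in exp6 and at 8.70 and 8.81 in exp5, against medians of 1.26 and 1.06 in the others. Its difference was 4.84 ± 0.14 in exp6 and 6.51 ± 0.16 in exp5. The exp5 libraries lay above every other library of that experiment, whose highest was 8.57, while in exp6 A30 was higher than A26 by a small margin (A26 less A30 −0.56 ± 0.19, adjusted p = 0.017). SAG1, the alpha-agglutinin of the cell surface that binds mating partners, stood at 8.82, 8.63 and 9.25 in exp6 and at 9.13 and 9.19 in exp5. It was higher by 3.90 ± 0.12 and 5.06 ± 0.14, and in exp6 it exceeded A30 by 0.70 ± 0.16 (adjusted p = 0.00077). AFB1, an alpha-specific a-factor barrier, stood at 8.37, 8.32 and 9.0 in exp6 and was higher by 3.39 ± 0.13 in exp6 and 4.41 ± 0.14 in exp5. MF(ALPHA)2, the second alpha-factor gene, stood at 10.79, 10.69 and 10.74 and was higher by 6.59 ± 0.27 and 7.92 ± 0.10.

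The genes at the mating-type loci divided the strains in the same way. The reference genome carries the alpha form at MAT, so RNA for the a1 protein of a and a/alpha cells is listed under HMRA1, its silent copy. HMRA1 was at 0.00 in all 5 A26 libraries. In exp6 it was also at 0 in A30 and A38 and stood between 4.90 and 6.79 in A28, A29, A32, A33 and A34. MATALPHA1, the alpha1 activator, stood at 5.16 to 5.79 in A26, at 5.06 to 5.24 in A30 and at 5.61 to 5.83 in A38, and did not exceed 1.66 elsewhere. MATALPHA1 and its silent copy HMLALPHA1 have equal values in 48 of 48 libraries, so the table does not separate these copies. IME4, an RNA methyltransferase gene that haploid cells keep off, was at 0.00, 0.00 and 0.15 in A26 and reached 4.58 in the other strains of exp6, where A28, A30 and A38 were likewise at 0.36 or below.

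Haploid-specific genes of the pheromone pathway, which both mating types use, were high in A26 as well. STE18, the gamma subunit of the G protein behind the receptor, stood at 6.97, 6.93 and 7.45 in exp6 and 7.84 and 7.68 in exp5. It was higher by 3.32 ± 0.24 and 5.11 ± 0.29, and its level was close to that of A28 (0.08 ± 0.31, adjusted p = 0.86), A30 (0.54 ± 0.31, 0.16) and A38 (−0.11 ± 0.31, 0.77). FUS3, the pathway's last kinase, stood at 6.39, 6.24 and 6.68 in exp6 and 6.07 and 6.28 in exp5, and was higher by 3.13 ± 0.15 and 4.01 ± 0.17. STE4 and GPA1, the other G protein subunits, were higher by 1.57 ± 0.14 and 1.81 ± 0.16 in exp6 and by 2.29 ± 0.09 and 2.87 ± 0.10 in exp5. FAR1, which arrests the cell cycle on pheromone, was higher by 2.54 ± 0.13 in exp6 and was too low over the exp5 libraries to be tested. SST2, which shuts the G protein off, was higher by 1.82 ± 0.12 and 2.46 ± 0.12.

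Within the strains that had these genes on, A26 was not alike for all of them. Against A38, 0 of the 19 haploid and pheromone genes were higher and 12 lower with libraries centred (median −0.49). In that contrast 1691 of all 5444 genes were higher and 1477 lower. AGA1, the anchor subunit of a-agglutinin, which pheromone induces, stood at 5.47, 5.17 and 5.76 in A26 and differed from A38 by −1.80 ± 0.21 (adjusted p = 2.3e-07). It differed from A28 by 2.39 ± 0.21 (1.2e-08) and from A30 by −0.13 ± 0.21 (0.62). GPA1 differed from A38 by −1.54 ± 0.21 (2.2e-06). Against A30, 8 of the 19 were higher and 4 lower, and against A28 9 and 2. Against A29, in contrast, 19 were higher and 0 lower. Over all 5444 genes the counts were 1497 and 1426 against A30, 1188 and 1113 against A28, and 1334 and 1547 against A29.

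Genes of a cells were low in A26, as in most other strains of exp6. Of 6 tested in exp6, 0 were higher and 4 lower than the mean of the others, with a median of −0.76 relative to all genes. Of 5 tested in exp5, 0 were higher and 3 lower. As deposited, 47.2% of all genes were lower in exp6 and 31.1% in exp5. Against A29 and A33 singly, with libraries centred, the median of the list was −0.03 and 0.05. STE2, the receptor for alpha-factor, stood at 2.16, 1.52 and 2.58 in A26 and at 7.79 to 8.01 in A28, the strain that set the high end. AGA2, the binding subunit of a-agglutinin, stood at 0.86, 0.87 and 0.90 in exp6, below all other libraries (1.37 to 5.94), and at 1.74 and 2.16 in exp5, inside their range. STE6, the a-factor exporter, and BAR1, the protease that degrades alpha-factor, were lower by −1.04 ± 0.11 and −0.96 ± 0.15 in exp6. The difference from the mean of the other strains thus holds A28 in part: from their median, STE6 differed by 0.082 in exp5, where it was −0.31 ± 0.11 from their mean. Over the marker genes, the mean level of 5 alpha-cell markers was 8.91 to 9.29 in the exp6 libraries of A26 and 1.3 to 2.61 in strains other than A30 and A38, that of a-cell markers 1.58 to 2.41 against 6.94 to 7.04 in A28, and that of sporulation markers 1.53 to 1.97 against 1.41 to 2.60 in the other strains. In bulk RNA a smaller share of cells of a type and less RNA per cell cannot be told apart.

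**Figure D2:**
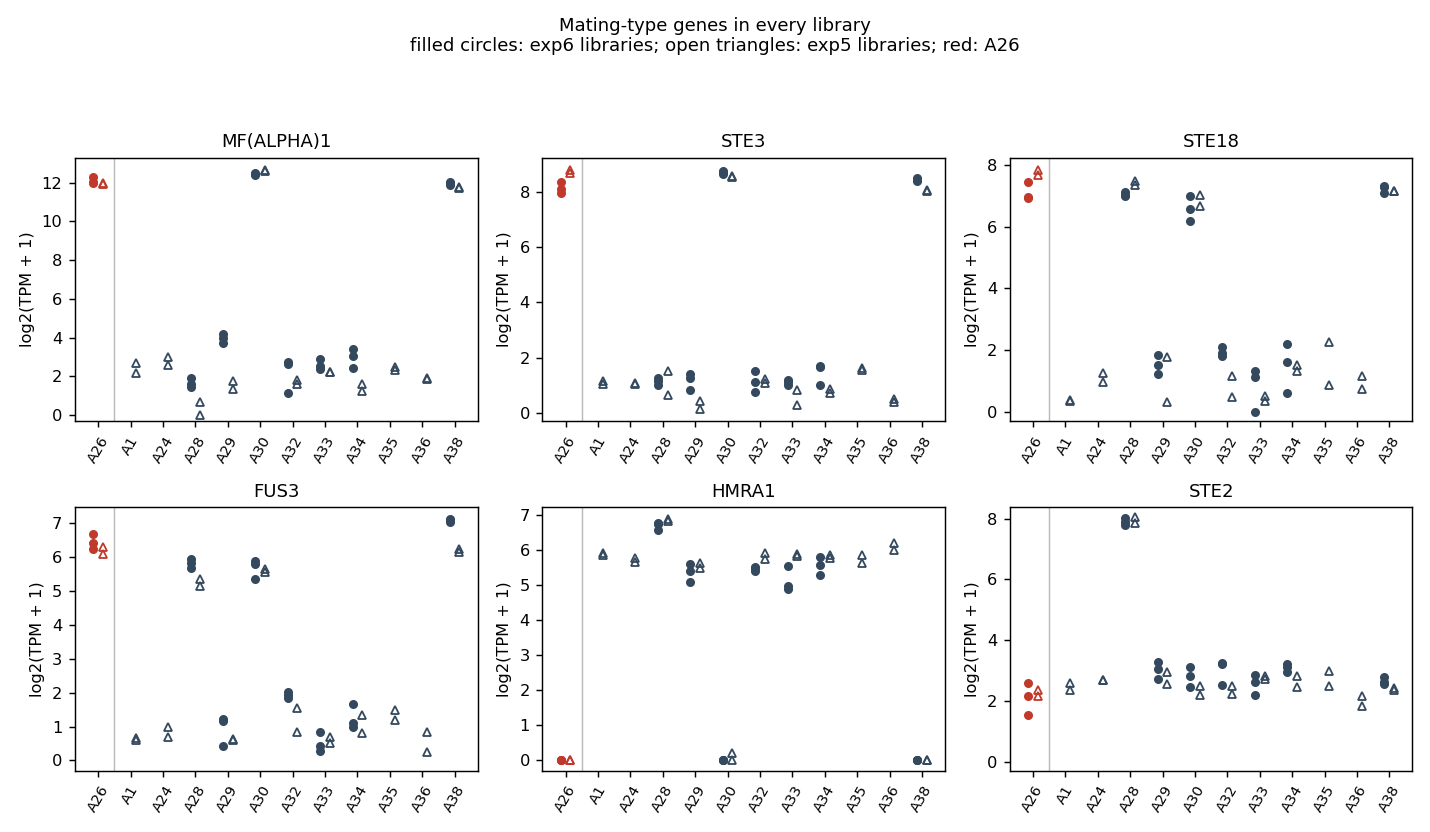
Level of 6 mating genes as log2(TPM + 1) (y axis) in every library, by strain (x axis), with filled circles for exp6, open triangles for exp5 and A26 in red. A26 lies with A30 and A38 for MF(ALPHA)1, STE3 and HMRA1, with A28 in addition for STE18 and FUS3, and A28 alone is high for STE2.

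Large decreases outside mating type included genes of nutrient uptake, beside the wall, deaminase and other genes given further below. PHO84 (YML123C), the high-affinity phosphate transporter, stood at 1.44, 0.88 and 1.14 in A26 in exp6, where the other strains ran from 2.38 to 7.16 with a median of 4.44. In exp5 it stood at 1.58 and 1.69, against 1.3 to 6.63 with a median of 4.86. The groups did not overlap in exp6, and in exp5 only A32 reached the A26 level. The difference was −3.35 ± 0.12 in exp6 (−3.10 relative to all genes, adjusted p = 7.7e-16) and −3.13 ± 0.08 in exp5 (1.7e-15). Against single strains of exp6, the relative difference ran from −5.60 to −1.01. The phosphate list as a whole, PHO84 included, moved less: of 28 tested, 2 were higher and 13 lower with libraries centred in exp6 (median −0.28). In exp5, 4 were higher and 16 lower (median −0.25), and 27.9% and 35.1% of all genes were called lower in exp6 and exp5. The mean level of this list in A26, relative to the middle gene, lay below that of every other library in both experiments. The margin was small, at −0.67 or below against −0.59 or above in exp6 and −0.71 against −0.66 in exp5. Whether it holds without PHO84 was not tested.

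Regulators of the phosphate pathway were also lower in exp6. PHO81, the inhibitor of the Pho80-Pho85 kinase, was lower by −1.03 ± 0.09 (−0.79 relative) in exp6 and −0.44 ± 0.10 in exp5. PHO2, the homeodomain partner of Pho4, was lower by −0.98 ± 0.12 (−0.74 relative) in exp6, and in exp5 its difference was −0.08 ± 0.10 (adjusted p = 0.53). SPL2, an inhibitor of low-affinity phosphate uptake, was lower by −1.07 ± 0.24 and −0.98 ± 0.19. PHO3, a constitutive acid phosphatase that thiamine represses, went the other way, at 8.18, 8.01 and 8.20 against 6.77 to 8.12 in exp6 and 8.19 and 8.38 against 5.79 to 7.96 in exp5. It was higher by 0.83 ± 0.06 (1.07 relative) and 1.11 ± 0.07.

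HXT1 (YHR094C), the low-affinity glucose transporter that high glucose induces, stood at 5.35, 5.13 and 5.48 in A26 in exp6. The 7 other strains ran from 6.88 to 9.62 with a median of 8.54. In exp5 it stood at 6.28 and 6.07 against 6.28 to 9.05. A26 was the lowest strain in both experiments, with no overlap in exp6 and with A33 nearest in both. The difference was −3.09 ± 0.08 in exp6 (−2.84 relative, adjusted p = 6.2e-18) and −1.78 ± 0.07 in exp5 (1.1e-12), and it was larger in exp6 by the test against the same 7 strains (−1.26 ± 0.12, adjusted p = 3.7e-08). HXT1 lies on chromosome VIII, where the median change was −0.33 and −0.28.

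The glucose-responsive repressors were lower too in exp6. MIG3 stood at 4.23, 3.78 and 4.52 in exp6, below all other libraries (5.15 to 7.13), and was lower by −2.01 ± 0.11 (−1.77 relative), and by −0.71 ± 0.11 in exp5. MIG2 was lower by −1.52 ± 0.13 (−1.27 relative) and −0.87 ± 0.09. MIG1, the main repressor of genes that glucose turns off, was lower by −1.33 ± 0.16 (−1.09 relative) in exp6, and in exp5 its difference was −0.21 ± 0.12 (adjusted p = 0.15), which turned to 0.032 with values centred per chromosome. Over the hexose transporter and sensor list, 0 of 14 tested were higher and 10 lower with libraries centred in exp6 (median −0.63), where 27.4% of all genes were higher and 27.9% lower. Against A28 alone, 4 were higher and 4 lower (median −0.02), beside 1188 and 1113 of all 5444 genes. In exp5, 4 were higher and 6 lower (median −0.07), where 27.7% of all genes were higher and 35.1% lower.

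Iron uptake genes were another group that was lower than the mean of the other strains. With libraries centred, 2 of 29 tested were higher and 20 lower in exp6 (median −0.37), beside 27.4% and 27.9% of all genes. In exp5, 2 of 27 were higher and 18 lower (median −0.26), beside 27.7% and 35.1% of all genes. As deposited, 20 of the 27 were called in exp5, and 12 without the first A26 library. The mean level of this list in A26, relative to the middle gene, lay below every other library in exp6 (−0.22 to −0.05 against −0.03 to 0.97). In exp5 it lay inside the range of the other strains (−0.14 to −0.10 against −0.49 to 0.94), so the exp5 difference depends on the strains with high levels. FIT2 and FIT3, cell wall mannoproteins that hold siderophore-bound iron, were lower by −2.09 ± 0.11 and −1.97 ± 0.14 in exp6 and by −1.06 ± 0.10 and −1.39 ± 0.12 in exp5. FIT2 stood at 6.14, 5.73 and 6.07 in A26 in exp6 and at 5.93 to 10.07 elsewhere, so A26 overlapped the low strains A29 and A32. In exp5 it stood at 5.22 and 4.97 in A26, above both libraries of A1, A28, A32 and A34 and below those of the remaining strains. ARN2, a siderophore transporter on chromosome VIII, stood as deposited at 4.05, 4.04 and 4.32 in exp6, below all other libraries (4.33 to 7.70). In exp5 it stood at 3.74 and 3.79, again below all (3.94 to 6.84). With libraries centred, ARN2 was not below all other libraries in both experiments. Its difference was −1.94 ± 0.09 and −1.11 ± 0.08. FRE5, a putative ferric reductase, was lower by −1.48 ± 0.17 in exp6 and was too low to be tested in exp5. FRE7, a copper-regulated reductase outside that list, was higher, at 3.89, 3.84 and 4.30 against 0.81 to 3.69 in exp6 (1.71 ± 0.13), and by 0.99 ± 0.26 in exp5, where the call was lost without the second A26 library (0.82).

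Of the genes that daughter cells use to separate from their mothers, 1 of 15 was higher than the mean of the other strains and 9 lower in exp6 with libraries centred (median −0.32), beside 27.4% and 27.9% of all genes. Against A28 alone, 3 were higher and 5 lower (median 0.03), beside 1188 and 1113 of all 5444 genes. In exp5 4 were higher and 8 lower (median −0.17), beside 27.7% and 35.1% of all genes. DSE2, a daughter-specific wall-degrading protein, stood at 5.86, 5.58 and 6.14 against 7.05 to 8.85 in exp6 and at 6.88 and 6.83 against 7.27 to 8.39 in exp5, with no overlap in either. It was lower by −2.07 ± 0.10 (−1.83 relative) and −1.01 ± 0.06. DSE1 was lower by −1.16 ± 0.12 and −0.61 ± 0.06, the glucanase gene SCW11 by −1.17 ± 0.09 and −0.77 ± 0.10, and PRY3, a wall protein of daughter cells, by −1.64 ± 0.17 and −1.13 ± 0.08. SCW10, a related glucanase of the cell wall outside that list, was higher by 0.89 ± 0.09 (1.13 relative) and 1.54 ± 0.06.

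Lysine synthesis genes were lower in both experiments against the mean of the others, but not against every strain. With libraries centred, 1 of 10 was higher and 7 lower in exp6 (median −0.43), beside 27.4% and 27.9% of all genes. In exp5, 0 were higher and 8 lower (median −0.45), beside 27.7% and 35.1% of all genes. LYS20 and LYS21, the homocitrate synthases, were lower by −0.77 ± 0.08 and −0.90 ± 0.08 in exp6 and by −0.82 ± 0.07 and −0.58 ± 0.08 in exp5. LYS12, homoisocitrate dehydrogenase on chromosome IX, was lower by −0.79 ± 0.06 and −0.83 ± 0.05, and LYS14, the pathway's activator, by −0.94 ± 0.11 and −0.37 ± 0.07. Against A32 and A34, 9 of the 10 genes were lower and 0 higher, with medians of −1.51 and −1.22, while against A33 7 were higher and 1 lower (median 0.65). Of all 5444 genes, 1500 were lower against A32 and 1602 against A34, while 1644 were higher and 1471 lower against A33.

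Single genes outside these lists that were low in both experiments included HPF1, a cell wall mannoprotein, at 2.42, 1.84 and 2.53 against 3.2 to 8.00 in exp6 and at 2.99 and 2.97 against 3.10 to 7.08 in exp5. Its difference was −2.57 ± 0.15 and −1.90 ± 0.09. CHA1, the serine and threonine deaminase, stood at 4.05, 4.11 and 4.06 against 4.87 to 7.15 in exp6 and at 4.74 and 5.05 against 4.70 to 8.00 in exp5, and was lower by −2.10 ± 0.10 and −1.80 ± 0.07. LIF1, a DNA end-joining factor, was lower by −1.26 ± 0.14 and −1.09 ± 0.12, and BNA5, a kynureninase of NAD synthesis, by −1.19 ± 0.10 and −1.11 ± 0.09. HPF1, LIF1 and BNA5 lay below every other library in both experiments once libraries were centred, while CHA1 overlapped A24 in exp5.

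**Figure D3:**
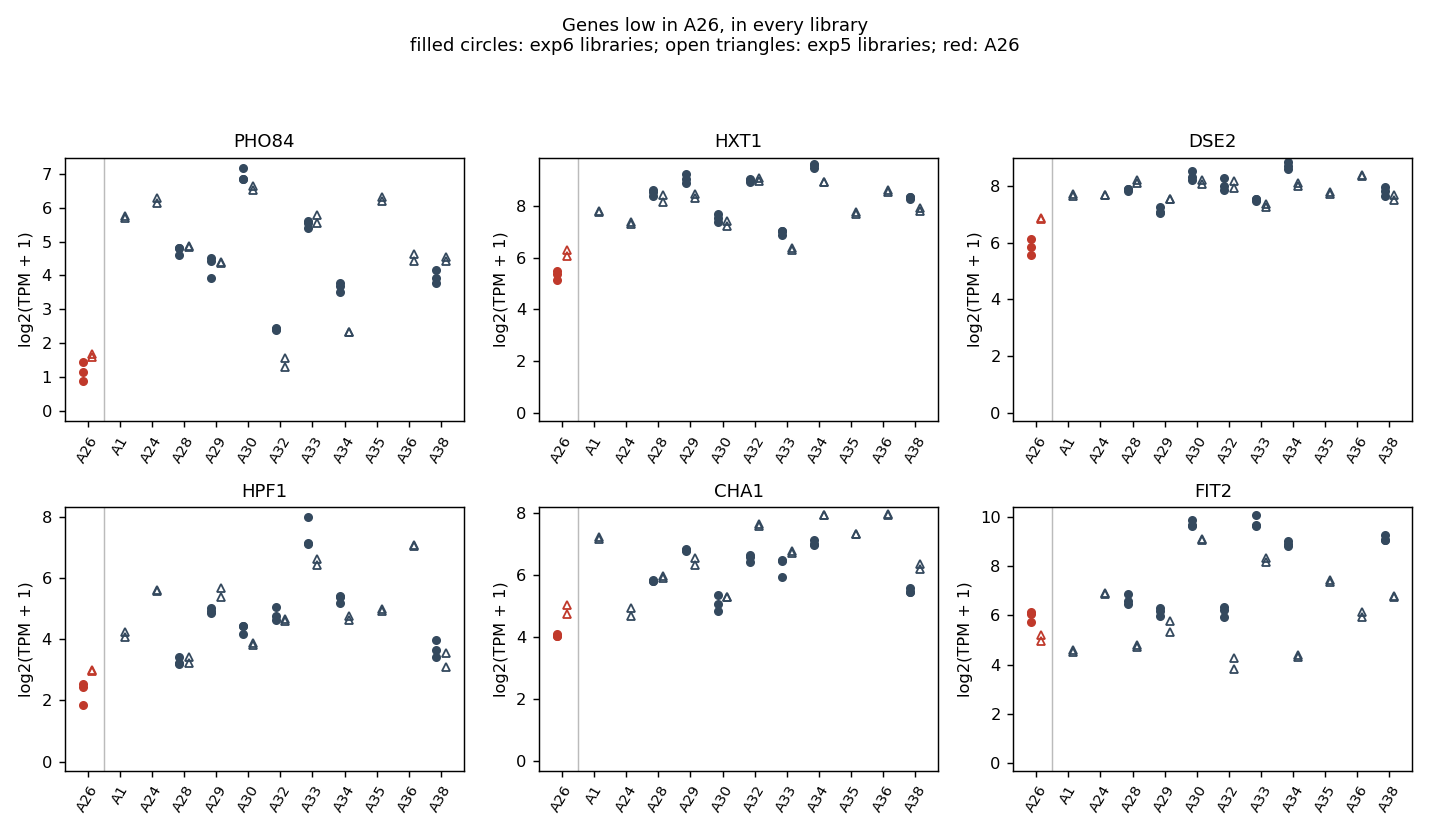
Level of 6 low genes as log2(TPM + 1) (y axis) in every library, by strain (x axis), with filled circles for exp6, open triangles for exp5 and A26 in red. A26 lies at the bottom for PHO84, HXT1, DSE2, HPF1 and CHA1 in exp6. FIT2 in A26 overlaps A29 and A32 in exp6 and lies above A1, A28, A32 and A34 in exp5.

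With libraries centred, the A26 libraries lay above all other libraries in both experiments for 39 of 5319 genes (0.733%) and below all for 22 (0.414%). Of the 39, 14 were on chromosome XIV, which held 369 of the 5444 genes tested in exp6. Chromosomes VII and IV, with 492 and 710 of those genes, held 6 and 7 of the 22. Chromosome IV had the most genes of any chromosome, and its median change in exp6 was only −0.14. Whether these counts exceed the share given by gene number was not tested. Of the high ones described here after their values were seen, MOG1 on chromosome X, a factor of nuclear protein import, was higher by 1.2 ± 0.13 and 0.93 ± 0.10, and BXI1 on chromosome XIV by 0.81 ± 0.10 and 1.04 ± 0.09. STE18, PHO3 and SCW10 were also among the 39.

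Genes of protein synthesis depended on the experiment and on the scaling. In exp6, 52 of 138 ribosomal protein genes were higher and 24 lower, beside 12.2% and 47.2% of all genes. With libraries centred 84 were higher and 6 lower (median 0.37 relative to all genes), beside 27.4% and 27.9% of all genes. In exp5, 43 were higher and 66 lower (median −0.07 relative), beside 28.5% and 31.1% of all genes. With values centred per chromosome the exp5 counts were 8 and 20, beside 721 and 1031 of all 5375 genes. Tested against the same 7 strains, 77 of the 138 were higher in exp6 than in exp5 and 0 lower with libraries centred, beside 15.3% of all genes called higher and 11.6% lower in that test. The A26 libraries of exp6 did not lie apart on this list, since their mean log2 level relative to the middle gene ran from 5.81 to 6.37 against 5.54 to 6.23 in the others. RPL3, a core protein of the large subunit, had a difference of −0.09 ± 0.09 in exp6 (adjusted p = 0.41, and 0.16 relative to all genes) and −0.15 ± 0.04 in exp5. RPS3 on chromosome XIV was higher in exp6 by 0.42 ± 0.12, and in exp5 its difference was 0.02 ± 0.03 (adjusted p = 0.46), which turned to −0.39 with values centred per chromosome.

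Some paralogs stood out, but reads of near-identical pairs can be split wrongly between copies, so these values are uncertain. RPL18B on chromosome XIV stood at 10.07, 10.13 and 10.13 against 7.48 to 9.73 in exp6 and was higher by 0.96 ± 0.06, and by 0.67 ± 0.03 in exp5. RPL9B, also on chromosome XIV, was higher by 1.29 ± 0.11 and 1.05 ± 0.03, and RPL7B by 0.92 ± 0.08 and 1.22 ± 0.09. RPS28B stood at 10.81, 10.77 and 9.51 in exp6, where the third library lay inside the range of the other strains, and was higher by 1.04 ± 0.24, and by 0.36 ± 0.07 in exp5. RPS9A was lower by −1.16 ± 0.13 and −1.87 ± 0.10, and RPS22B by −1.15 ± 0.07 and −2.00 ± 0.05. RPS22B in exp5 stood at 6.70 and 6.74, below all other libraries (6.77 to 10.60), and in exp6 at 7.14, 7.10 and 6.98, inside their range.

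Ribosome biogenesis genes, which make and assemble rRNA in the nucleolus, gave 35 higher and 25 lower of 133 with libraries centred in exp6 (median 0.09). The share higher was near the 27.4% of all genes, and 27.9% of all genes were lower. As deposited 11 were higher and 51 lower in exp6, beside 12.2% and 47.2% of all genes, and 41 in all were called without the second A26 library. In exp5, 12 were higher and 93 lower with libraries centred (median −0.23), beside 27.7% and 35.1% of all genes. As deposited 104 were called in exp5 with both libraries and 69 without the first. NSR1, a nucleolar protein of pre-rRNA processing, had a difference of −0.13 ± 0.07 in exp6 (adjusted p = 0.12, and 0.11 with libraries centred) and was lower by −0.49 ± 0.06 in exp5. NOP1, the fibrillarin methyltransferase, had a difference of −0.15 ± 0.07 in exp6 (adjusted p = 0.061, and 0.084 with libraries centred) and was lower by −0.15 ± 0.04 in exp5.

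Mitochondrial ribosomal protein genes were more often higher than lower. With libraries centred, 47 of 77 were higher and 6 lower in exp6 (median 0.40), beside 27.4% and 27.9% of all genes. In exp5, 37 were higher and 19 lower (median 0.20), beside 27.7% and 35.1% of all genes. In exp6 the mean level of the list lay above every other library (1.34 to 1.44 against 0.75 to 1.25), and with values centred per chromosome 49 were higher and 1 lower in exp6, and 10 higher and 2 lower in exp5. With that centring 1268 of all 5444 genes were higher in exp6 and 721 of all 5375 in exp5, so the exp5 share of the list is near that of all genes. The largest changes were on chromosome XIV. RSM19, a small-subunit protein, stood at 7.88, 7.89 and 7.83 against 6.10 to 7.40 in exp6 and was higher by 1.14 ± 0.10 and 0.83 ± 0.10, above all other libraries in both. MRPS12, MRPS18 and MRP35 were higher by 0.94 ± 0.14, 0.79 ± 0.14 and 0.73 ± 0.17 in exp6 and by 0.54 ± 0.05, 0.63 ± 0.05 and 0.57 ± 0.10 in exp5.

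Chaperone genes of the heat shock response gave 21 higher and 3 lower of 36 with libraries centred in exp6 (median 0.26), beside 27.4% and 27.9% of all genes. In exp5, 13 were higher and 10 lower (median 0.10, and −0.01 with values centred per chromosome), beside 27.7% and 35.1% of all genes. SIS1, the essential J-domain partner of Hsp70, stood at 8.66, 8.71 and 9.13 against 7.22 to 8.46 in exp6 and at 8.64 and 8.74 against 7.51 to 8.56 in exp5. It was higher by 1.01 ± 0.09 and 0.46 ± 0.08, with no overlap in either. SIS1, HCH1 and YDJ1 are all on chromosome XIV. HCH1, an Hsp90 cochaperone, was higher by 0.80 ± 0.08 and 0.16 ± 0.05, and YDJ1, another J-domain protein, by 0.50 ± 0.07 and 0.23 ± 0.06, and both exp5 values turned negative with values centred per chromosome (−0.26 and −0.19). HSP26, a small heat shock protein on chromosome II, was higher by 0.86 ± 0.20 and 1.83 ± 0.22, at 3.79, 3.77 and 4.25 against 0.71 to 5.65 in exp6.

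**Figure D4:**
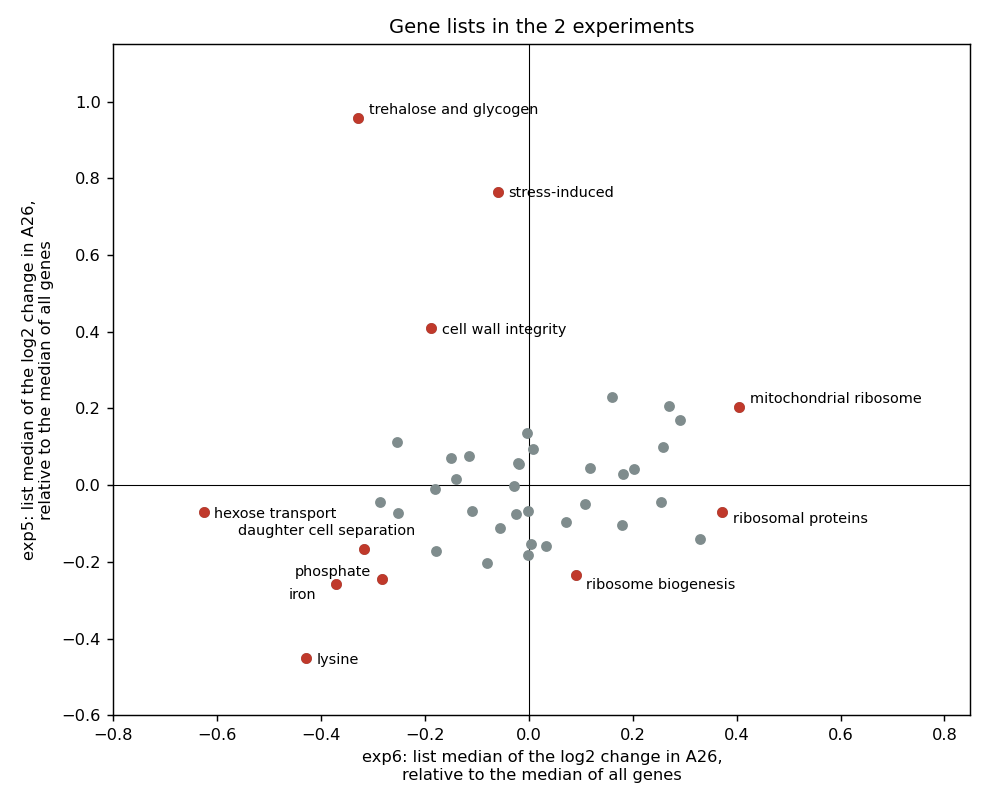
Median log2 change in A26 of 44 gene lists with at least 10 members tested, relative to the median of all genes, in exp6 (x axis) against exp5 (y axis). There is 1 point per list, with the labelled lists in red. The haploid and pheromone list lies beyond the axes. Mitochondrial ribosome genes lie to the upper right and lysine, iron and phosphate genes to the lower left, while trehalose and stress-induced genes are high in exp5 and not in exp6.

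The change of A26 differed between the experiments for 1750 of 5421 genes (32.3%, limma, against the same 7 strains), of which 173 were more positive in exp6 (3.19%) and 1577 more negative (29.1%). With libraries centred the counts were 830 and 628. The number rested on single A26 libraries, with 862 and 1038 without the first and second library of exp5, and 1214, 957 and 2744 without the 1st, 2nd and 3rd library of exp6. The labels give no difference in medium, temperature or kit between exp5 and exp6.

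Genes of the general stress response, which yeast induces under many kinds of stress, differed in this way. With libraries centred, 13 of 66 stress-induced genes were higher and 19 lower in exp6 (median −0.06), beside 27.4% and 27.9% of all genes. The share lower was thus near that of all genes. In exp5, 43 of 59 were higher and 1 lower (median 0.76), beside 27.7% and 35.1% of all genes. In the test between experiments with libraries centred, 0 of 64 were higher and 34 lower in exp6, beside 15.3% and 11.6% of all genes. The exp5 libraries of A26 were themselves unlike, at a mean level of 0.24 and 0.93 relative to the middle gene, within the other strains' range of −1.18 to 0.99. As deposited, 45 of the 59 were called in exp5 and 24 without the first library, and 43 of the 66 were called in exp6 and 27 without the second. HSP12, a membrane-stabilising stress protein, was lower by −1.28 ± 0.12 in exp6 (−1.03 relative), at 6.47, 6.19 and 6.62 against 6.00 to 8.79. In exp5 it stood at 5.88 and 5.94 against 3.72 to 7.76, with a difference of 0.23 ± 0.11 (adjusted p = 0.073), which was −0.13 against the 7 strains of exp6. CTT1, the cytosolic catalase, was lower by −1.26 ± 0.13 in exp6, and its exp5 libraries differed, at 3.93 and 2.58 (−0.04 ± 0.26, adjusted p = 0.90). MGA1 and GAC1, members of the same list, differed between experiments by −2.04 ± 0.38 and −1.70 ± 0.37, and RCK1, a stress kinase, was lower by −1.69 ± 0.24 in exp6.

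Storage carbohydrate genes behaved alike. Of the trehalose and glycogen list, 2 of 24 were higher and 14 lower with libraries centred in exp6 (median −0.33), beside 27.4% and 27.9% of all genes. In exp5, 15 of 20 were higher and 2 lower (median 0.96), beside 27.7% and 35.1% of all genes. As deposited, 17 in all were called in exp5 with both A26 libraries and 6 without the first. TPS1, trehalose-phosphate synthase, stood at 8.60, 8.37 and 8.70 against 7.69 to 9.18 in exp6 (0.12 ± 0.09, adjusted p = 0.26, and 0.37 relative) and at 8.65 and 8.17 against 5.93 to 8.53 in exp5 (1.01 ± 0.12, adjusted p = 1.8e-06). The difference between experiments was −0.80 ± 0.17 (adjusted p = 0.00076). Cell wall integrity genes gave 8 higher and 15 lower of 36 in exp6 with libraries centred (median −0.19). In exp5 they gave 20 higher and 6 lower of 34 (median 0.41), beside the same shares of all genes.

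The 5 largest negative differences between experiments were in glucose genes that low glucose turns on. HXT7, a high-affinity glucose transporter nearly identical in sequence to HXT6, stood at 8.49, 8.42 and 8.55 in exp6, where the others ran from 7.50 to 11.08 with a median of 9.73, and was lower by −1.07 ± 0.15. In exp5 it stood at 8.87 and 7.18, while the others ran from 2.98 to 7.74 with a median of 6.22, and it was higher by 1.76 ± 0.62. The first exp5 library of A26 was above the exp6 levels and the second below them, and the median of the other strains was lower in exp5. Such a split was not particular to A26. The exp5 libraries also lay apart in A28 (4.65 and 7.38), A29 (7.58 and 4.60) and A30 (6.04 and 7.69), and less so in the remaining strains. The difference between experiments was −3.17 ± 0.64 (adjusted p = 0.00063), and the exp5 call was lost without the first A26 library (0.91). HXT2 stood at 9.66, 9.46 and 9.87 and then 10.20 and 9.47, and differed between experiments by −2.69 ± 0.40. HXT4, the Rgt1 partner MTH1 and the hexokinase gene HXK1 differed by −2.80 ± 0.47, −2.54 ± 0.37 and −2.53 ± 0.37. HXT4 in exp5 was called with both A26 libraries (1.60 ± 0.43) and not without the first (0.76).

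**Figure D5:**
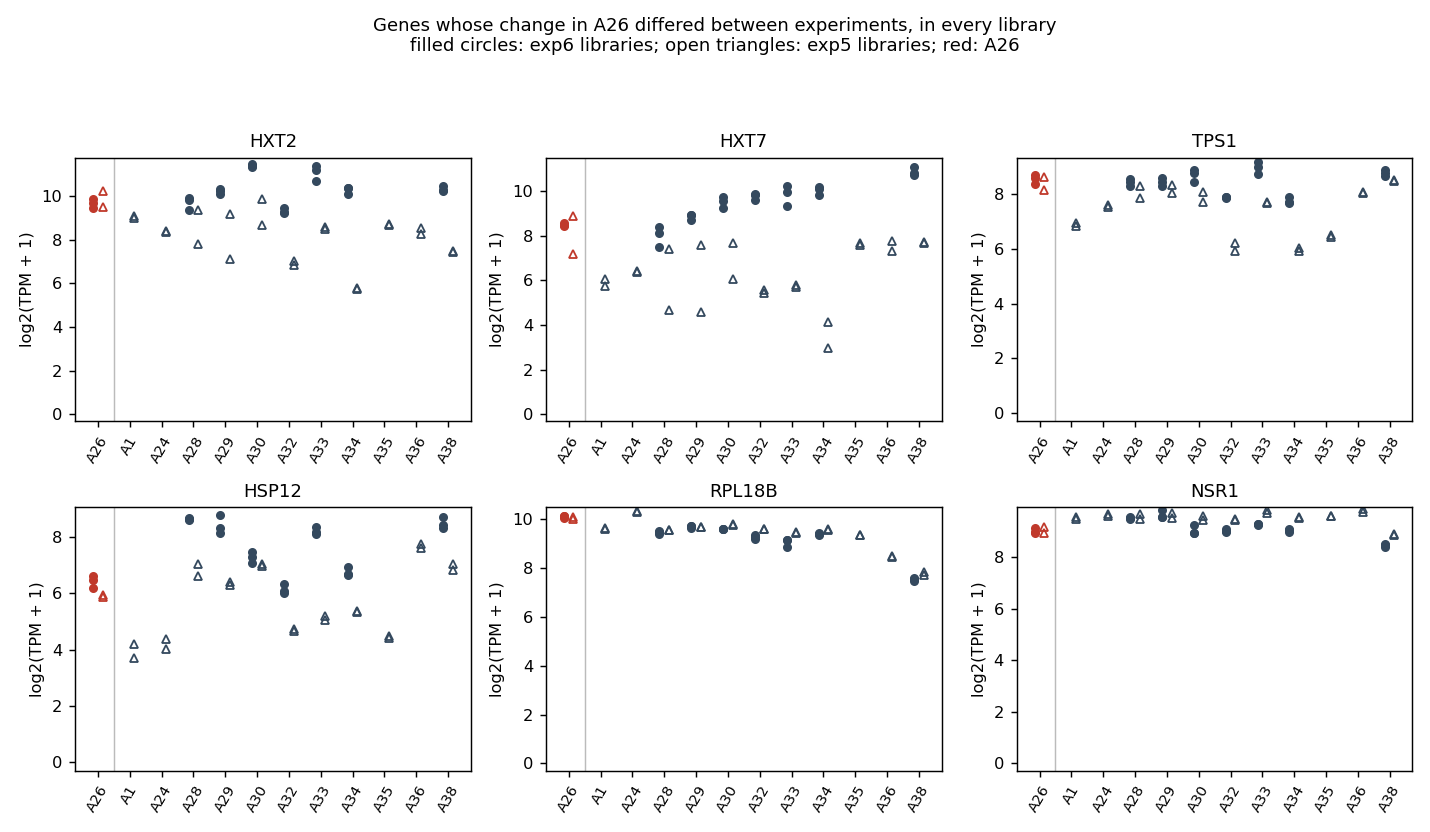
Level of 6 genes as log2(TPM + 1) (y axis) in every library, by strain (x axis), with filled circles for exp6, open triangles for exp5 and A26 in red. For HXT2 and HXT7 most other strains are lower in exp5 than in exp6. The exp5 libraries of A26 for HXT7 lie apart (8.87 and 7.18), as do those of A28, A29 and A30. RPL18B in A26 stays near 10.1.

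The largest positive differences between experiments were smaller. AQR1, a multidrug transporter on chromosome XIV, stood at 4.25, 4.76 and 4.60 in exp6 and at 3.59 and 5.16 in exp5, and differed by 1.5 ± 0.38 (adjusted p = 0.004), a call that was lost without the first exp5 library (0.72). DFP2 differed by 1.18 ± 0.33 and TDA6 by 1.16 ± 0.24, and these calls too were lost without that library (0.94 and 0.68). TIM12, a mitochondrial import factor, stood at 6.36, 6.37 and 6.45 in exp6 and was higher by 0.87 ± 0.18, and in exp5 its difference was 0.09 ± 0.07 (adjusted p = 0.31). The test between experiments gave 0.86 ± 0.25 for it, and the call was lost without the first exp5 library (0.84).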

How the data were processed

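Poly(A) RNA was sequenced from 48 libraries of exp5 and exp6. Reads were aligned with STAR 2.5.3a and quantified with RSEM 1.3.0 on sacCer3, per the submitters' processing notes. The authors deposited 1 table of log2(TPM + 1) values for 6692 genes. No counts were used here, so depth is unknown and a change in a few abundant genes moves all other TPM values.

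Genes with a mean of at least 2 were tested in R 4.3.3 with the package limma 3.58.1. The model had a mean per strain and an eBayes variance trend along mean expression, and calls needed a Benjamini-Hochberg adjusted p under 0.05. The contrast was A26 minus the unweighted mean of the other strain means. Exp6 was fitted over 24 libraries, exp5 over 24, and the difference between them over the 40 libraries of the 8 shared strains. "Centred" values had the library's median over the tested genes, or that of each chromosome, taken off. A chromosome was described as apart at a median of at least 0.25 in all 5 A26 libraries. The list score is the mean log2 level of its members less the library's middle gene. The script was tested on simulated data. Tables and plots were made with Python 3.11.15, pandas 2.3.3, numpy 2.4.6, scipy 1.17.1 and matplotlib 3.10.9.

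Named genes were the 12 largest increases and decreases called in both experiments, the 6 largest of each after the chromosome's median was taken off, up to 4 called members of each list with 3 or more calls, the 5 largest differences between experiments in each direction, and HSP12, CTT1, TPS1, RPL3, RPS3, NOP1 and NSR1. The rule gives 224 genes. The text names 76 of them, keeping 12 of 53 lists, and 15 more that were chosen after their values were seen. A26, the gene lists and the tests were chosen with earlier results of these data known. Gene positions matched RefSeq for 6000 of 6008 shared genes, from which promoter sequences were read. Alternatives were other filters, pseudocounts (0.1 and 5), scalings, the variance prior, a replicate block, leaving out libraries or strains, the median of the other strains, and strains as replicates.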

Additional observations from a re-analysis of the deposited data

Results flagged for a closer look

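The change of A26 was tested for a difference between exp6 and exp5 against the same 7 strains, and every result below was raised by that test (limma, adjusted p under 0.05), as exp6 less exp5 on the log2 scale. Over all genes 1750 differed. Among glucose genes the values were −3.17 for HXT7, −2.80 for HXT4, −2.69 for HXT2, −2.54 for MTH1, −2.53 for HXK1, −1.26 for HXT1, −1.34 for MIG3, −1.28 for MIG1 and −0.79 for MIG2. Among stress and storage genes they were −2.04 for MGA1, −1.70 for GAC1, −1.26 for CTT1, −1.15 for HSP12, −0.80 for TPS1 and −1.27 for the wall protein HSP150. Phosphate and iron genes gave −0.74 for PHO84, −0.87 for PHO2, −0.71 for PHO81, −1.07 for FIT2 and −0.84 for ARN2.

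Daughter and wall genes gave −1.07 for DSE2, −0.65 for DSE1 and −1.0 for HPF1, and the lysine activator LYS14 gave −0.53. Mating genes gave −0.98 for STE3, −0.69 for AFB1 and −1.90 for AGA2, which left STE3 and AFB1 high in A26 in both experiments. Values above 0 were 1.5 for AQR1, 1.18 for DFP2, 1.16 for TDA6, 0.89 for FRE7, 0.86 for TIM12, 0.60 for HCH1, 0.56 for SIS1, 0.54 for RPS22B, 0.34 for FPR1, 0.31 for NSR1 and 0.25 for RPL18B. The median difference of all genes in this test was −0.23. What in the experiments these differences follow was not tested. Groups of 2 and 3 libraries are too small to be screened for single outlying libraries.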

How the results depend on the processing

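The number of genes called in exp6 stayed within 1.5 times 3231 in all alternatives except strains as replicates (0), and leaving out a library gave 2406 to 3557. In exp5 (3205) it was 1752 centred per chromosome, 0 with strains as replicates and 2246 to 3239 without a library. The difference between experiments (1750) ran from 862 to 2744 without 1 A26 library. Genes called against each of the 7 strains (423) were 181 centred per chromosome and 202 to 868 without a library. The rank of A26 by calls among 8 strains (2) was 3 with a filter at 4, 6 with libraries centred and 1 to 7 without a library. A replicate block gave 3143, 3181 and 1661 calls. Deviations of same-numbered libraries of 2 strains correlated at a median of −0.020 in exp6 (−0.261 to 0.29) and −0.0094 in exp5 (−0.443 to 0.446). The medians gave no sign of a pairing shared by all strains. Of the tests of single named genes under an alternative, 7425 kept direction and side of the threshold, 211 lost it, 35 gained it and 34 reversed, and the causes were not tested. In exp6 the reversals were TDA6 (0.14 centred, 0.34 per chromosome, 0.081 without strain A29, −0.21 to 0.033 without an A26 library), RPL3 (0.15 centred, 0.31 per chromosome, −0.14 to 0.00029 without a library), NOP1 (0.084 and 0.22) and NSR1 (0.11 and 0.42). In exp5, per chromosome, they were TIM12 (−0.27), HCH1 (−0.26), YDJ1 (−0.19), MIG1 (0.032), PHO2 (0.031), CTT1 (0.20), RPS3 (−0.39, and −0.00087 with libraries centred), ASC1 (−0.29), FPR1 (−0.00049) and GIS2 (−0.13). STE6 was 0.082 from the median of the others. HSP12 was −0.13 and CTT1 7.1e-05 against only the 7 strains of exp6. CTT1 was 0.017, 0.072 and 0.064 without strains A28, A36 and A38. Without single libraries exp5 values ran from −1.19 to 0.38 for AQR1, −0.28 to 1.04 for MGA1, −0.20 to 0.048 for PHO2, −0.72 to 0.64 for CTT1 and −0.010 to 0.060 for RPS3. Since the values are not counts, what depth limits cannot be given.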
